A study of Mus musculus with 16 samples.

Results

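Mouse CD8+ T cells sorted on day 2 of an activation culture (Teff1) were compared with the naive cells the culture started from (Tn), by RNA-seq of 3 libraries each. These are 6 of the 12 RNA-seq libraries of a series of 16 samples that follows gene expression and genome folding through T cell activation. The cells came from spleens of C57BL/6 mice. Tn cells were sorted as naive CD8+ CD44- cells on day 0, without stimulation. Teff1 cells had been stimulated with anti-CD3e and anti-CD28, each at 10 µg/ml, had received IL-2 at 300 U/ml after the first night, and were sorted as CD8+ PD-1+ TIM-3-. Nothing in the labels ties replicates to distinct mice or cultures, and p-values therefore reflect only how these libraries vary, which may be technical.

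Naive CD8+ T cells are small resting cells that recirculate through blood, spleen and lymph nodes. Signals from the T cell receptor and CD28 make them enlarge, remake their metabolism and divide, and IL-2 sustains that growth. The genes that rise in this process are well known for cytokine receptors, cytotoxic granules, glycolysis and the cell cycle. The gene classes below lie mostly outside those lists: the machinery that makes, folds and destroys proteins, building blocks of nucleic acids, nuclear transport, negative regulators of signalling, surface glycans, lysosomes, zinc finger proteins and the clock. RNA was measured in bulk, so fewer cells of a type and less RNA per cell cannot be told apart.

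Library totals were 14.7 to 17.6 M counts in Tn and 17.3 to 21.2 M in Teff1. Levels are CPM, a gene's counts scaled to a common library size that was adjusted by edgeR's TMM factors, and all differences are Teff1 minus Tn. Fold changes, standard errors (SE) and Benjamini-Hochberg adjusted p-values come from edgeR's quasi-likelihood test over 14332 genes on all 12 libraries, and a gene was called where the adjusted p was under 0.05. Transcripts of sorted proteins were checked first. Cd44 had 36.2, 6.33 and 32.2 CPM in Tn against 106, 73.5 and 84.3 CPM in Teff1 (log2 fold change 1.81, SE 0.50, adjusted p = 0.011), although Tn cells were sorted as CD44-. Pdcd1, which encodes PD-1, had 3.51, 2.99 and 6.92 CPM in Tn against 106, 72.2 and 93.5 CPM in Teff1 (log2 fold change 4.32, SE 0.38, adjusted p = 1.16e-05). Havcr2, which encodes TIM-3, was low and an uneven fall, with 2.45, 0.408 and 2.20 CPM in Tn against 0.523, 0.380 and 0.182 CPM in Teff1 (log2 fold change -2.18, SE 0.69, adjusted p = 0.021); its call was lost in 6 of 15 alternative fits, with adjusted p-values of 0.92 with Tn replicate 2 alone, 0.077 in limma, 0.058 and 0.077 without Teff1 replicates 2 and 3, and 0.074 and 0.068 without Tn replicates 1 and 3. Cd8a was abundant in both groups but lower in Teff1, with 929, 1535 and 1127 CPM in Tn against 772, 746 and 791 CPM in Teff1 (log2 fold change -0.64, SE 0.18, adjusted p = 0.013), and its adjusted p was 0.06 without Tn replicate 2 and 0.051 without the filter on low counts. Of the 9 CD8 T cell markers 7 were called lower. Cd44 and Pdcd1 were higher in Teff1, and in Cd44 Tn replicate 2 was the lowest of the 3 Tn libraries.

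In all, 3507 genes were called higher in Teff1 (24.5% of those tested) and 3505 lower (24.5%). With a fold change of at least 2 in size, 2285 were higher (15.9%) and 2472 lower (17.2%). The median log2 fold change over all genes tested was -0.06. Genes called higher made up 17.6%, 18% and 17.6% of the counts of Tn replicates 1, 2 and 3, and 38.5%, 40.2% and 44% of those of Teff1 replicates 1, 2 and 3. Gene lists are described by how many of their tested members were called in each direction, read against 24.5% for either direction, and by their median log2 fold change.

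**Figure D1:**
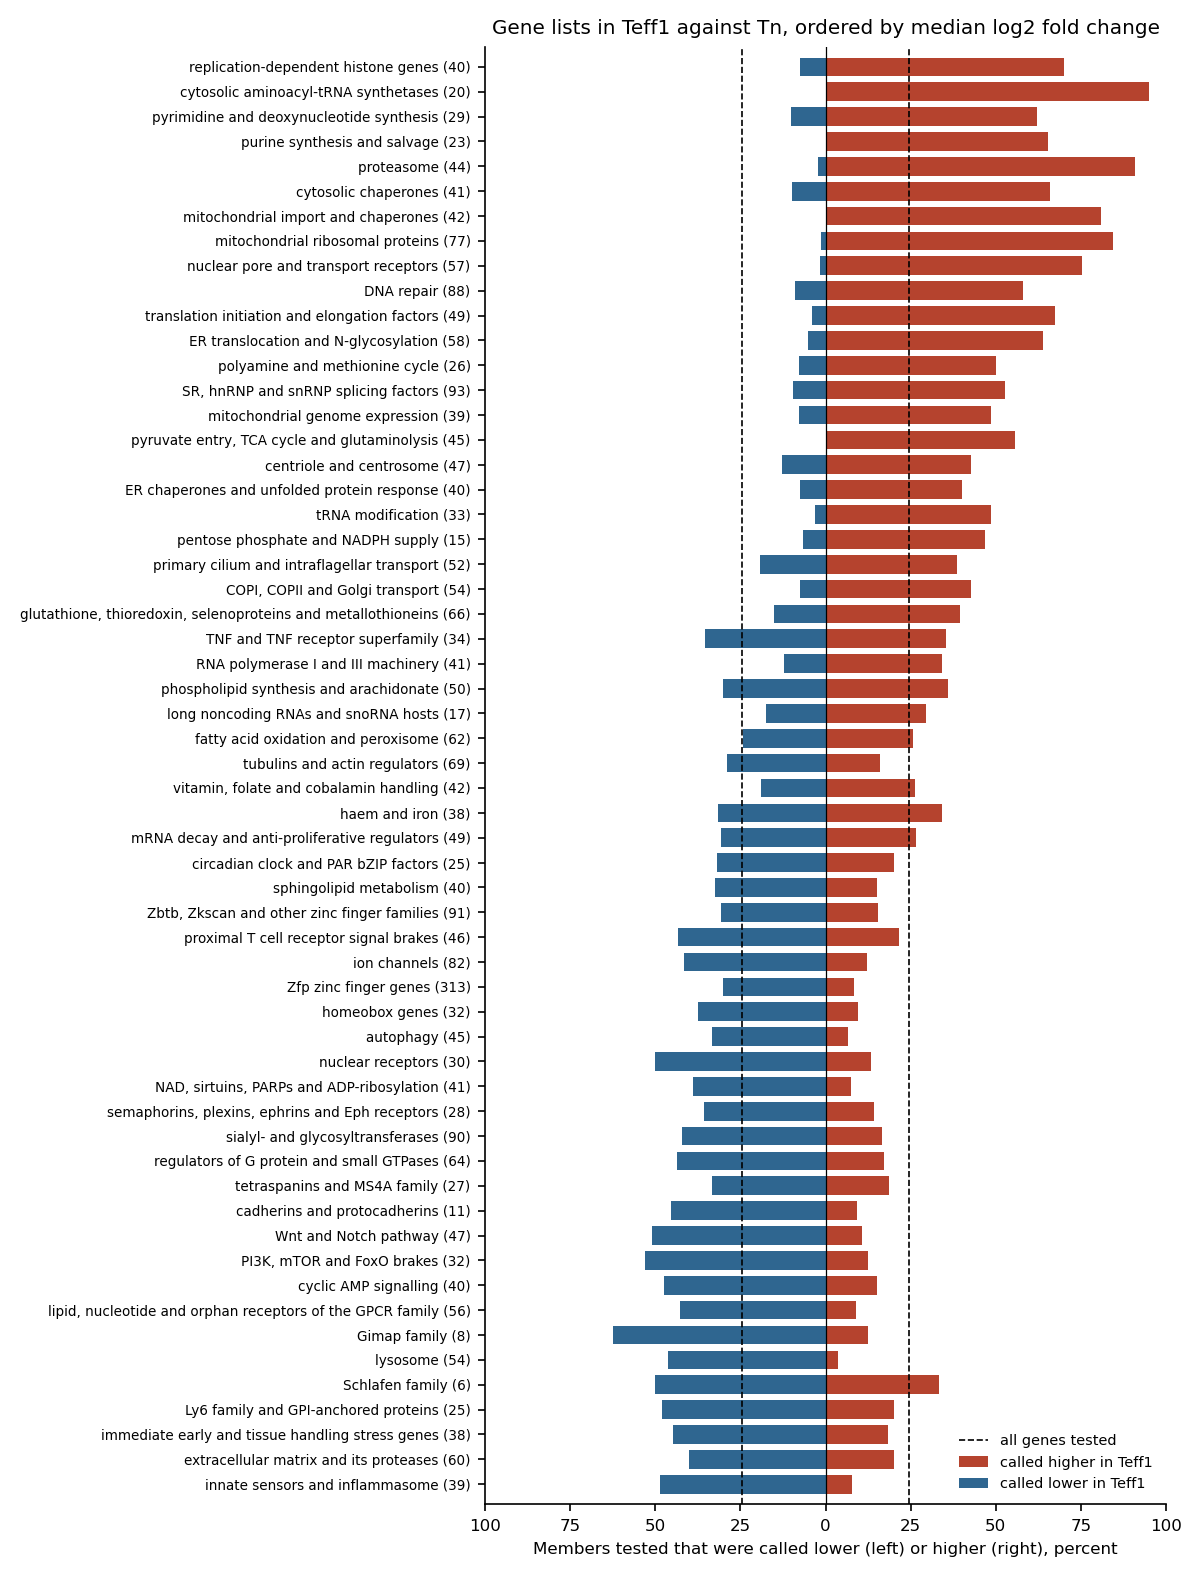
Share of tested members called lower (bars to the left) or higher (bars to the right) in Teff1, in percent, for each gene list with at least 6 members tested, ordered by median log2 fold change from the highest at the top; the number tested stands in brackets and dashed lines mark the 24.5% of all genes tested called in each direction. Lists of protein synthesis, protein breakdown, nucleotides and the nucleus lie at the top, with up to 95% of members called higher, and lists of surface proteins, lysosomes and signalling lie at the bottom.

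Transcripts of other cell types were present in Tn and uneven over its libraries. Summed over the list and on plain library totals, markers of B cells reached 1763, 677 and 2974 CPM in Tn against 249.6, 246 and 334 CPM in Teff1. For MHC class II, which antigen-presenting cells display, the sum was 1700.2, 268 and 2735 CPM in Tn against 96.9, 72.1 and 79.2 CPM in Teff1. NK cell and innate lymphoid markers summed to 153, 6.27 and 299 CPM in Tn against 6.38, 3.07 and 3.23 CPM in Teff1. In these 3 lists Tn replicate 2 was the lowest Tn library and replicate 3 the highest. Replicate 2 was also the lowest of Tn for CD4 and regulatory T cells, gamma delta T cells, plasma cells, splenic macrophages and monocytes. The same held for dendritic cells, neutrophils, mast cells and basophils, and platelets, but not for erythroid or for stromal and endothelial markers. Splenic macrophage markers summed to 434, 165 and 202 CPM in Tn against 29.5, 23.9 and 23.7 CPM in Teff1, with replicate 1 the highest, and erythroid markers to 239, 194 and 101 CPM in Tn against 2.51, 2.74 and 7.33 CPM in Teff1, with replicate 3 the lowest of Tn. In Tn replicate 2 the CD8 T cell markers had their highest sum, 5646 CPM, and the markers of memory-like cells (CD44-high) their lowest, 622 CPM against 877 and 995 CPM in replicates 1 and 3.

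**Figure D2:**
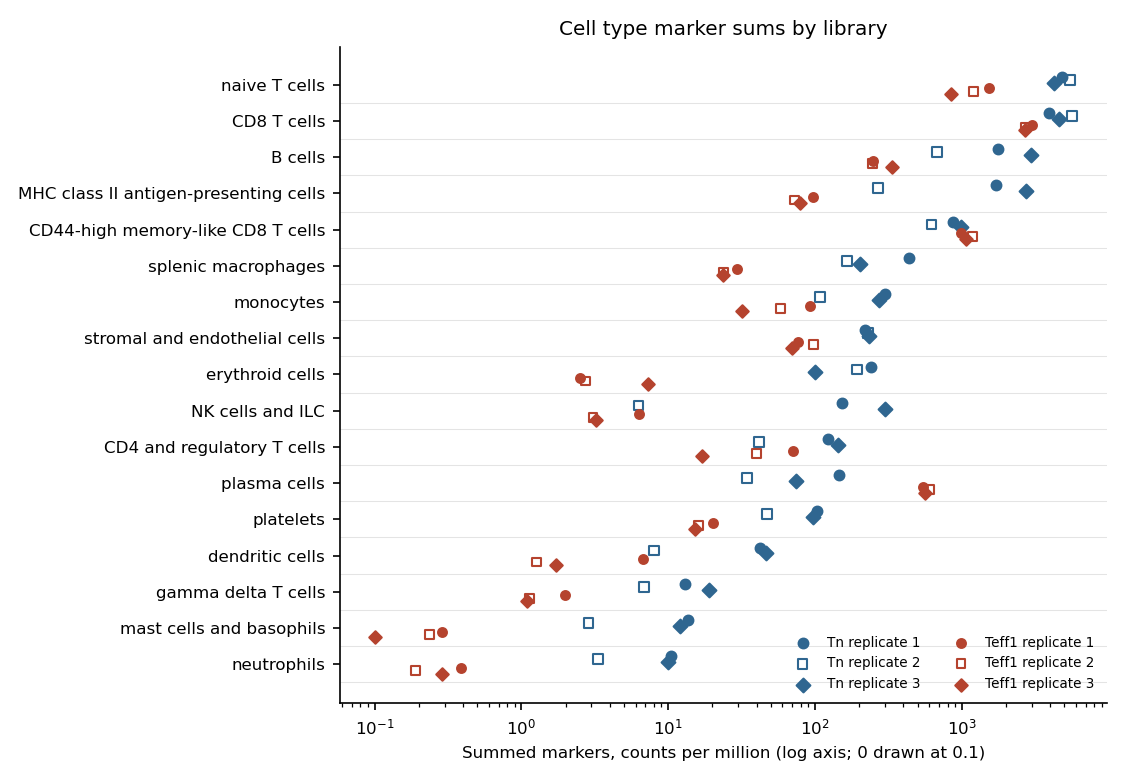
Summed marker levels of 17 cell types in CPM of each library (log axis), with blue symbols for Tn and red ones for Teff1 and a symbol shape for each replicate. Open blue squares, Tn replicate 2, lie left of the other Tn libraries in most lists of other cells, but not for erythroid or for stromal and endothelial cells. Red symbols lie left of all blue ones in most lists of other cells.

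Of 101 tested markers of cells other than CD8 T cells, 88 were called lower in Teff1 and 1 higher. The one that rose was Irf4, listed as a plasma cell marker and also a transcription factor induced by T cell receptor signals, with 82.8, 7.01 and 30.0 CPM in Tn against 533, 606 and 584 CPM in Teff1 (log2 fold change 3.84, SE 0.64, adjusted p = 5.50e-04). A fall in such a marker was measured against Tn libraries that differ among themselves: Cd74, the MHC class II invariant chain, had 519, 45.7 and 814 CPM in Tn against 36.8, 23.2 and 32.7 CPM in Teff1, and was no longer called with Tn replicate 2 as the lone Tn library (adjusted p = 0.7). Gzma, a granzyme listed as an NK cell marker, had 71.8, 1.70 and 128 CPM in Tn against 1.33, 0.143 and 0.485 CPM in Teff1, and its adjusted p with Tn replicate 2 alone was 0.56. In Tn replicate 2 both were close to Teff1, though above each of its libraries.

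All called falls were therefore sorted by their evenness over Tn. A fall was uneven where Tn replicates 1 and 3 both exceeded 2 times replicate 2 (0.5 CPM added to each), and even where neither did and the gene was also called lower with replicate 2 as the lone Tn library. Of the 3505 falls 270 (7.7%) were uneven and 1313 (37.5%) even. Among the 3507 rises 95 (2.71%) had the uneven pattern, and among all genes tested 543 (3.79%). Neither replicate exceeded the multiple in 2950 falls (84.2%), 3286 rises (93.7%) and 12942 of all genes tested (90.3%). Such falls were left out of the even ones where they were not called with the lone library. Even falls include some that were highest in Tn replicate 2, such as Igfbp4 and Art4. Falls with replicate 1 alone above 2 times both other Tn libraries numbered 127 (3.62%), those with replicate 3 alone 14 (0.399%), and those with replicate 2 alone 1. Over all genes tested these patterns had 301 (2.1%), 32 (0.223%) and 25 genes (0.174%). The fit with a lone Tn library calls fewer genes of either direction: 42% of the falls and 40.9% of the rises were called in it, against 20.8% of all genes tested in either direction. In 97.9% of the falls, Tn replicate 2 by itself lay above all 3 Teff1 libraries, and in 98.9% of the rises it lay below all 3, while over all genes tested it lay outside their range in 77.7%. Since Tn replicate 2 was part of the fit that made the calls, these shares are a description.

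Uneven falls carried few counts. Together the 270 genes held 0.658%, 0.0845% and 0.908% of the counts of Tn replicates 1, 2 and 3 and 0.0228% to 0.0288% of those of Teff1. The 1313 even falls held 19.7%, 21% and 20.8% of the Tn counts and 6.35% to 7.79% of the Teff1 counts. Of the 88 falling markers of other cells 39 were uneven, 14 even and 35 neither, and 43 were still called lower with Tn replicate 2 alone. Of the 10 erythroid markers called lower 7 were even and 0 uneven. Of the 13 splenic macrophage markers called lower 3 were even and 0 uneven. An even fall can therefore also be that of a marker of another cell type. The part that other cells have in a given fall was not tested.

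**Figure D3:**
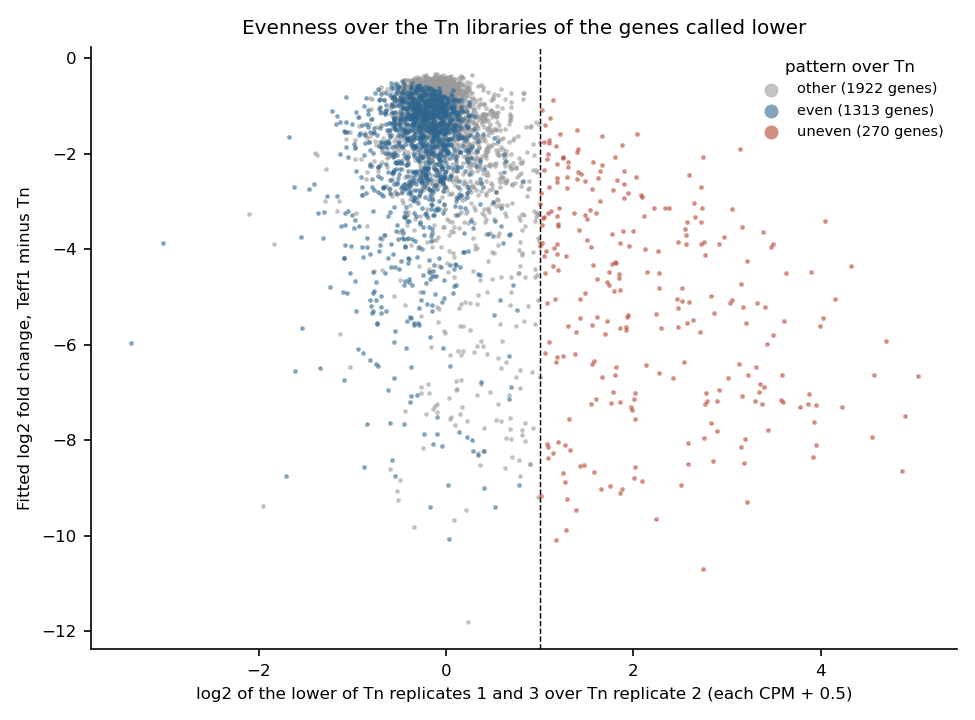
Each point is a gene called lower in Teff1, placed by the log2 of the lower of Tn replicates 1 and 3 over Tn replicate 2 (horizontal, each CPM plus 0.5) and by its fitted log2 fold change (vertical); the dashed line marks 2-fold. The 270 uneven falls lie right of the line, and most of the 1313 even falls lie around 0 with fold changes of smaller size.

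Uneven genes were frequent among the largest falls. Of the 10 largest falls by the naming rule, which leaves out listed markers of other cells and asks for a call with Tn replicate 2 alone, 8 were uneven: Blk, Blnk, Lmo2, Lyn, Pxdc1, Sfpi1, Syk and Wdfy4. Syk, a kinase of B cell and Fc receptor signalling, had 129, 11.5 and 157 CPM in Tn against 0.333, 0 and 1.09 CPM in Teff1 (log2 fold change -7.79, SE 1.20, adjusted p = 3.52e-04). Blk, a Src family kinase of B cells, had 33.9, 4.15 and 61.4 CPM in Tn against 0.0951, 0 and 0.364 CPM in Teff1 (log2 fold change -7.81, SE 1.27, adjusted p = 4.77e-04). Lyn, another of that family found in B and myeloid cells, had 41.1, 5.10 and 46.8 CPM in Tn against 0.143, 0.143 and 0.364 CPM in Teff1 (log2 fold change -7.17, SE 0.91, adjusted p = 1.05e-04). All 3 are kinases on the cytoplasmic side of immune receptors. Sfpi1, which encodes the B cell and myeloid transcription factor PU.1, had 32.1, 4.49 and 20.7 CPM in Tn against 0.0475, 0 and 0.0606 CPM in Teff1, and the ratio of counts was 590.1 (95% counting interval 163 to 4879). In each of these genes Tn replicates 1 and 3 stood above replicate 2, and replicate 2 stood above all Teff1 libraries.

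Other uneven falls, among the most uneven by the naming rule, were not called against replicate 2 alone. Chst3, which sulphates chondroitin chains, had 63.9, 2.72 and 100.4 CPM in Tn against 1.81, 2.99 and 3.39 CPM in Teff1. Faim3, which encodes the receptor for the Fc part of IgM, had 54.8, 1.63 and 98.3 CPM in Tn against 1.05, 0.713 and 0.788 CPM in Teff1. Siglecg, an inhibitory receptor of B cells, had 38, 0.816 and 95 CPM in Tn against 0.0475, 0.0475 and 0.242 CPM in Teff1. All 3 had their highest level in Tn replicate 3. The ion channel gene Cacna1i, of a T-type calcium channel, had 22.9, 0.748 and 37.8 CPM in Tn against 0, 0.0950 and 0.303 CPM in Teff1. With Tn replicate 2 as the lone Tn library their adjusted p-values were 0.99, 0.3, 0.15 and 0.16. For Chst3, replicate 2 of Tn lay inside the range of the Teff1 libraries. Falls with the opposite pattern, highest in Tn replicate 2, included Igfbp4, which binds insulin-like growth factors, with 214, 366 and 196 CPM in Tn against 44.6, 36.5 and 37.6 CPM in Teff1 (log2 fold change -2.71, SE 0.56, adjusted p = 0.0021). Art4, a member of the ADP-ribosyltransferase family, had 7.47, 20.7 and 10.3 CPM in Tn against 3.0, 1.62 and 1.52 CPM in Teff1 (log2 fold change -2.64, SE 0.46, adjusted p = 7.90e-04).

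Even falls also included genes with large fold changes. The 10 largest with at least 10 CPM in Tn, picked after their values were seen, were Grm6, Cd7, Bai2, Ccr9, Klf2, S1pr1, Ggt1, Dtx1, Ampd1 and Fcgrt. Cd7, an immunoglobulin superfamily protein of T and NK cells, had 45.2, 59 and 62.8 CPM in Tn against 0.761, 0.190 and 0.242 CPM in Teff1 (log2 fold change -7.08, SE 0.54, adjusted p = 4.95e-06). Ccr9, the receptor for the gut chemokine CCL25, had 123, 215 and 137 CPM in Tn against 3.99, 0.665 and 1.21 CPM in Teff1 (log2 fold change -6.32, SE 0.66, adjusted p = 3.11e-05). Fcgrt, which encodes the neonatal Fc receptor that recycles IgG and albumin, had 25.7, 40.5 and 38.1 CPM in Tn against 0.903, 0.665 and 1.09 CPM in Teff1 (log2 fold change -5.29, SE 0.32, adjusted p = 1.79e-06). In each, every Tn library lay far above Teff1. Ampd1, an AMP deaminase of the purine nucleotide cycle, had 13.6, 17.9 and 20.1 CPM in Tn against 0.713, 0.143 and 0.303 CPM in Teff1 (log2 fold change -5.44, SE 0.64, adjusted p = 6.32e-05). The adhesion receptor gene Bai2 (now Adgrb2) had 10.4, 10.1 and 16.7 CPM in Tn against 0.285, 0.0475 and 0.0606 CPM in Teff1 (log2 fold change -6.45, SE 0.86, adjusted p = 1.44e-04). All 3 Tn libraries were within 2-fold of each other for these 5 genes and above every Teff1 library.

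**Figure D4:**
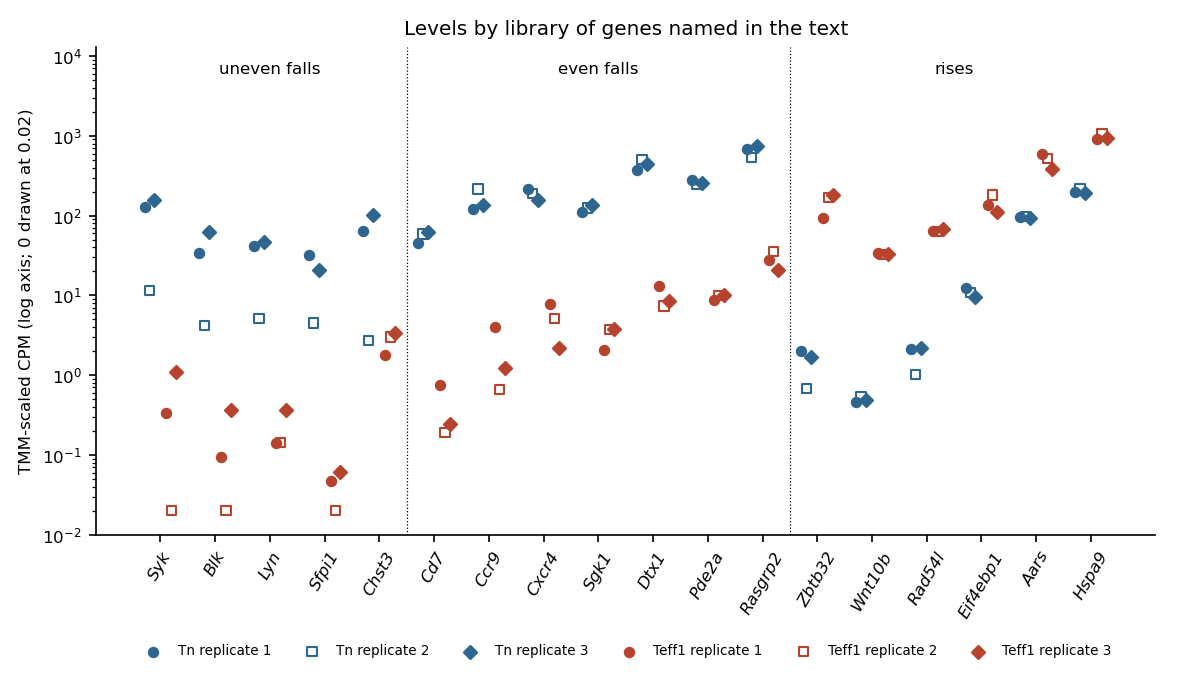
Levels in TMM-scaled CPM (log axis) of 18 genes in the 3 Tn libraries (blue) and the 3 Teff1 libraries (red), a symbol shape for each replicate. For the 5 uneven falls at the left the open blue square of Tn replicate 2 lies far below the other Tn libraries, for the 7 even falls the 3 Tn libraries lie together, and for the 6 rises the Teff1 libraries lie above.

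Genes of protein synthesis were mostly called higher. Of the cytosolic aminoacyl-tRNA synthetases, which charge tRNAs with amino acids, 19 of the 20 members tested were called higher and 0 lower (median log2 fold change 1.83), and the 1 not called was Farsa. Aars, the alanine enzyme, had 97.1, 97.8 and 92.9 CPM in Tn against 587, 518 and 387 CPM in Teff1 (log2 fold change 2.37, SE 0.18, adjusted p = 4.95e-06). Yars, the tyrosine enzyme, had 47, 45.8 and 47.4 CPM in Tn against 248, 268 and 199.7 CPM in Teff1 (log2 fold change 2.35, SE 0.18, adjusted p = 4.95e-06). Gars, the glycine enzyme, had 81.6, 94.7 and 81.7 CPM in Tn against 359, 558 and 443 CPM in Teff1 (log2 fold change 2.40, SE 0.28, adjusted p = 6.13e-05). The Tn libraries lay close together for each enzyme and every Teff1 library was more than 3-fold above them. Among genes of tRNA modification 16 of the 33 members tested were called higher and 1 lower (median log2 fold change 0.51, with 0 falls without Teff1 replicate 1, Teff1 replicate 3, Tn replicate 2 or Tn replicate 3), with rises such as the pseudouridine synthase Pus7, at 35.9, 37.8 and 34.2 CPM in Tn against 69.5, 95.7 and 134 CPM in Teff1 (log2 fold change 1.47, SE 0.21, adjusted p = 2.28e-04).

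Translation factors were mostly called higher. Of them 33 of the 49 members tested were called higher and 2 lower (median log2 fold change 0.80, with 1 fall without Teff1 replicate 1, Teff1 replicate 2, Teff1 replicate 3 or Tn replicate 1). Eif4ebp1, which encodes the eIF4E-binding repressor 4E-BP1, had the largest rise of the list, with 12.5, 10.9 and 9.50 CPM in Tn against 137, 181 and 111 CPM in Teff1 (log2 fold change 3.71, SE 0.21, adjusted p = 1.79e-06). Eif2s2, the beta subunit of the factor that brings the initiator tRNA, had 93.9, 80.7 and 86.2 CPM in Tn against 415, 382 and 413 CPM in Teff1 (log2 fold change 2.21, SE 0.28, adjusted p = 9.77e-05). Eif5a, the factor that carries hypusine, had 464, 428 and 397 CPM in Tn against 1347, 1630.2 and 2581 CPM in Teff1 (log2 fold change 2.11, SE 0.28, adjusted p = 1.31e-04). Every Teff1 library of these genes lay above Tn. The falls were Eif4ebp3 and Eif4a2, a paralogue of the helicase eIF4A, which had 944, 887 and 764 CPM in Tn against 309, 469.9 and 437 CPM in Teff1 (log2 fold change -1.09, SE 0.18, adjusted p = 5.41e-04). The groups did not overlap for any of these 4 genes with values. So the largest rise in the list was that of a repressor, not of a factor.

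RNA polymerases I and III, which make ribosomal RNA, tRNA and 5S RNA, moved less: 14 of the 41 members tested were called higher and 5 lower (median log2 fold change 0.29). Gtf3c5, a subunit of the factor TFIIIC, had 24.9, 24.9 and 19.4 CPM in Tn against 62.2, 54.7 and 63.9 CPM in Teff1 (log2 fold change 1.39, SE 0.18, adjusted p = 1.07e-04). Maf1, the repressor of RNA polymerase III, had 210.1, 196 and 181 CPM in Tn against 84.6, 84.4 and 62.2 CPM in Teff1 (log2 fold change -1.35, SE 0.23, adjusted p = 5.88e-04). The other 4 falls were Brf1, Polr3gl, Taf1c and Ttf1, which are parts or partners of the polymerases themselves.

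Mitochondrial protein supply rose broadly. Among mitochondrial ribosomal proteins 65 of the 77 members tested were called higher and 1 lower (median log2 fold change 0.94), and among import channels and matrix chaperones 34 of the 42 members tested were called higher and 0 lower (median log2 fold change 0.94). Mrps6, of the small subunit, had 6.61, 6.26 and 6.06 CPM in Tn against 36.9, 31.4 and 35.3 CPM in Teff1 (log2 fold change 2.45, SE 0.23, adjusted p = 1.61e-05). Hspa9, the matrix Hsp70 that pulls proteins through the inner membrane, had 196, 221 and 189.7 CPM in Tn against 909, 1079.9 and 948 CPM in Teff1 (log2 fold change 2.27, SE 0.16, adjusted p = 4.61e-06). Lonp1, a matrix protease, had 99.3, 88.8 and 95.6 CPM in Tn against 520.3, 449 and 304 CPM in Teff1 (log2 fold change 2.16, SE 0.20, adjusted p = 1.64e-05). No Teff1 library overlapped Tn in these genes. The single fall among the ribosomal proteins was Mrpl24, with 81.2, 99.8 and 103 CPM in Tn against 63.1, 62 and 64.2 CPM in Teff1 (log2 fold change -0.59, SE 0.16, adjusted p = 0.011), not called with Tn replicate 2 alone (adjusted p = 0.07) or without the filter on low counts (adjusted p = 0.052). Genes that replicate and transcribe the mitochondrial genome were called less evenly: 19 of the 39 members tested were called higher and 3 lower (median log2 fold change 0.60, with 12 rises without Teff1 replicate 3). Tefm, its transcription elongation factor, had 2.91, 5.31 and 6.22 CPM in Tn against 10.9, 10.9 and 12.5 CPM in Teff1 (log2 fold change 1.24, SE 0.27, adjusted p = 0.0026).

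Among enzymes of the tricarboxylic acid cycle, pyruvate entry and glutamine breakdown 25 of the 45 members tested were called higher and 0 lower (median log2 fold change 0.58, with 1 fall without Teff1 replicate 1). Gpt2, the mitochondrial alanine transaminase, had 2.84, 0.680 and 0.483 CPM in Tn against 97.7, 136 and 37.6 CPM in Teff1 (log2 fold change 6.10, SE 0.72, adjusted p = 6.96e-05). Got1, the cytosolic aspartate transaminase, had 35.7, 31.4 and 29.8 CPM in Tn against 173, 198 and 158 CPM in Teff1 (log2 fold change 2.45, SE 0.27, adjusted p = 4.06e-05). Slc25a13, the mitochondrial aspartate-glutamate carrier, had 2.05, 3.06 and 2.63 CPM in Tn against 11.4, 24.9 and 38.6 CPM in Teff1 (log2 fold change 3.27, SE 0.51, adjusted p = 3.58e-04). Both transaminases and the carrier were above Tn in every Teff1 library, with the spread within Teff1 widest for Gpt2.

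Genes of protein quality control were mostly called higher. Of proteasome genes 40 of the 44 members tested were called higher and 1 lower (median log2 fold change 1.14), and of cytosolic chaperones 27 of the 41 members tested were called higher and 4 lower (median log2 fold change 1.0). Psmb7, a catalytic subunit of the standard proteasome, had 61.3, 51.9 and 53.1 CPM in Tn against 156, 167 and 248 CPM in Teff1 (log2 fold change 1.78, SE 0.23, adjusted p = 1.35e-04). The 1 proteasome gene that fell was Psmb10, the immunoproteasome subunit that replaces it, with 119.8, 149 and 126 CPM in Tn against 81.2, 72.1 and 88.4 CPM in Teff1 (log2 fold change -0.71, SE 0.15, adjusted p = 0.0026). Tcp1, a subunit of the CCT chaperonin that folds actin and tubulin, had 134, 159 and 120.1 CPM in Tn against 336, 442 and 529 CPM in Teff1 (log2 fold change 1.66, SE 0.26, adjusted p = 4.17e-04). The chaperonin and the standard subunit thus lay above Tn in every Teff1 library. The co-chaperone Dnajb1, which is also on the list of immediate early and stress genes, was lower, with 151, 174 and 125 CPM in Tn against 89.1, 68 and 90.6 CPM in Teff1 (log2 fold change -0.86, SE 0.18, adjusted p = 0.0025). The 3 other chaperone falls were Dnajb4, Dnajc7 and Pfdn5. The heat shock element was searched by that name on both strands of the promoter windows described next. It was in 3 of 34 chaperone genes with a window (Chordc1, Dnajb6 and Hsph1), 0.552% of tested genes and 0.603% of all windows. Of the chaperone genes called higher 1 of 20 with a window held it (Chordc1), and Dnajb6 and Hsph1 were not called.

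Genes of the secretory pathway were called higher more often than lower. Of genes for translocation into the endoplasmic reticulum (ER) and N-glycosylation 37 of the 58 members tested were called higher and 3 lower (median log2 fold change 0.67), and of COPI, COPII and Golgi transport 23 of the 54 members tested were called higher and 4 lower (median log2 fold change 0.41, with 2 falls without Teff1 replicate 3). Alg8, a glucosyltransferase that builds the N-glycan precursor, had 15.3, 15.2 and 12 CPM in Tn against 50.4, 61.2 and 48.8 CPM in Teff1 (log2 fold change 1.92, SE 0.24, adjusted p = 9.70e-05). Lman1, a cargo receptor between ER and Golgi, had 23.3, 30.8 and 29.9 CPM in Tn against 73.7, 123 and 104 CPM in Teff1 (log2 fold change 1.84, SE 0.27, adjusted p = 2.58e-04). Among ER chaperones and the unfolded protein response 16 of the 40 members tested were called higher and 3 lower (median log2 fold change 0.55). Within it, related genes went opposite ways. Ero1l, an ER oxidase (now Ero1a), had 35, 34.2 and 32 CPM in Tn against 149.9, 149 and 128 CPM in Teff1 (log2 fold change 2.08, SE 0.20, adjusted p = 2.07e-05), while its paralogue Ero1lb (now Ero1b) had 33.3, 21.4 and 37.4 CPM in Tn against 9.13, 7.60 and 6.0 CPM in Teff1 (log2 fold change -2.02, SE 0.27, adjusted p = 1.45e-04). Dnajb9, a co-chaperone of BiP, had 159, 68.5 and 27.6 CPM in Tn against 14.4, 8.17 and 9.33 CPM in Teff1 (log2 fold change -3.0, SE 0.56, adjusted p = 0.0012), with Tn replicate 1 the highest.

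Promoters of this ER list were searched for the ER stress element, CCAAT and CCACG separated by 9 bases, on both strands of RefSeq windows (GRCm38.p6) from 250 bases before to 50 after the start. It was held by 10 of the 36 tested members with a window, against 18 of 10144 tested genes (0.177%) and 39 of 32851 windows in all (0.119%). Of the 10 it stood in 4 called higher (Canx, Hsp90b1, Hspa5 and Pdia6), 2 called lower (Dnajc3 and Ero1lb) and 4 not called. In the window from 100 bases before to 50 after the start, 3 of the 36 members held it. The stretches below are shown because they hold the same element and their genes moved in opposite directions; capitals mark the element with its spacer, on either strand. They run 5′ to 3′ along the gene's strand.

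Hspa5 promoter, chr2:34771958-34772087, plus strand: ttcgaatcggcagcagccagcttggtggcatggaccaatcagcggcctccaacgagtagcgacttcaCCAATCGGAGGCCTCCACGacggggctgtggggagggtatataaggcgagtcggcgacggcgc

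Pdia6 promoter, chr12:17266424-17266553, plus strand: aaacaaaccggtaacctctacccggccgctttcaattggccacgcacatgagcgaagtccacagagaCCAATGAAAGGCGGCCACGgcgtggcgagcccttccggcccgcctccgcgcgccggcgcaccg

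Dnajc3 promoter, chr14:118937760-118937889, plus strand: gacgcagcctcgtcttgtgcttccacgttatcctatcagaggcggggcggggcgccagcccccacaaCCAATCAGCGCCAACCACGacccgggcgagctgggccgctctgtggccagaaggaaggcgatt

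Ero1lb promoter, chr13:12565633-12565744, plus strand: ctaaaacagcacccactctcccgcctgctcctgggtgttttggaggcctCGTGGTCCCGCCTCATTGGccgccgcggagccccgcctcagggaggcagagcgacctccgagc

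Of these genes, which were named because of their promoters after values were seen, Pdia6, an ER disulphide isomerase, had 90.6, 88.1 and 97.2 CPM in Tn against 101, 252 and 325 CPM in Teff1 (log2 fold change 1.30, SE 0.33, adjusted p = 0.0067), and was not called with Tn replicate 2 alone (adjusted p = 0.11). Hspa5, which encodes the ER chaperone BiP, had 509.7, 338 and 288 CPM in Tn against 399, 791 and 806 CPM in Teff1 (log2 fold change 0.81, SE 0.31, adjusted p = 0.048), so its groups overlapped. Dnajc3, a BiP co-chaperone, had 149, 202 and 162 CPM in Tn against 132, 120.5 and 120.2 CPM in Teff1 (log2 fold change -0.46, SE 0.17, adjusted p = 0.04). The calls of both were near the threshold and were lost in 9 of 16 alternative fits each. With 1 library left out the adjusted p of Hspa5 was 0.14 without Teff1 replicate 2, 0.15 without Teff1 replicate 3, 0.13 without Tn replicate 2 and 0.16 without Tn replicate 3. That of Dnajc3 was 0.059, 0.11 and 0.11 without Teff1 replicates 1, 2 and 3, and 0.16 and 0.071 without Tn replicates 2 and 3.

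Genes of nucleotide synthesis were called higher far more often than lower. Of the list of purine synthesis and salvage 15 of the 23 members tested were called higher and 0 lower (median log2 fold change 1.21), and of pyrimidine and deoxynucleotide genes 18 of the 29 members tested were called higher and 3 lower (median log2 fold change 1.53). The AMP deaminase genes Ampd1 and Ampd3, both called lower, were not on the purine list. Impdh2, which commits inosine monophosphate to guanine nucleotides, had 109.6, 102 and 88.8 CPM in Tn against 311, 322 and 365 CPM in Teff1 (log2 fold change 1.73, SE 0.20, adjusted p = 6.23e-05). Paics, a purine enzyme named for its promoter, had 79.4, 104 and 86.1 CPM in Tn against 252, 281 and 357 CPM in Teff1 (log2 fold change 1.72, SE 0.21, adjusted p = 7.88e-05). Both purine enzymes were above Tn in every Teff1 library. Tyms, thymidylate synthase, had 6.55, 4.69 and 5.15 CPM in Tn against 82.4, 72.2 and 95.1 CPM in Teff1 (log2 fold change 3.93, SE 0.34, adjusted p = 1.06e-05). Rrm2, a subunit of ribonucleotide reductase, had 15.1, 7.62 and 12 CPM in Tn against 340.0, 269 and 376 CPM in Teff1 (log2 fold change 4.82, SE 0.54, adjusted p = 5.00e-05). The last of these supplies deoxynucleotides for replication. The alternative subunit Rrm2b and the mitochondrial thymidine kinase Tk2 were among the 3 falls, and Tk2 had 68.1, 69.6 and 81.5 CPM in Tn against 21.6, 25 and 16.9 CPM in Teff1 (log2 fold change -1.79, SE 0.23, adjusted p = 1.19e-04). The third fall was Ctps2, and the groups did not overlap in any of the genes given with values.

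Of the polyamine and methionine cycle 13 of the 26 members tested were called higher and 2 lower (median log2 fold change 0.64, with 0 falls without Teff1 replicate 2 or Teff1 replicate 3 and 1 fall without Tn replicate 1 or Tn replicate 2). Odc1, ornithine decarboxylase, which starts polyamine synthesis, had 169.9, 105 and 72.5 CPM in Tn against 405, 476 and 680.0 CPM in Teff1 (log2 fold change 2.17, SE 0.43, adjusted p = 0.0016). Ahcy, which removes S-adenosylhomocysteine, had 58.7, 57.1 and 46.1 CPM in Tn against 282, 280.0 and 347 CPM in Teff1 (log2 fold change 2.49, SE 0.27, adjusted p = 4.26e-05). Slc19a1, the reduced folate carrier, from the list of vitamin handling, had 27, 34.7 and 28 CPM in Tn against 82.4, 139.7 and 173 CPM in Teff1 (log2 fold change 2.14, SE 0.34, adjusted p = 4.42e-04). Odc1, Ahcy and Slc19a1 were above Tn in every Teff1 library. On that list Tcn2, a cobalamin transport protein, had 12.8, 9.59 and 15 CPM in Tn against 2.23, 2.61 and 2.61 CPM in Teff1 (log2 fold change -2.33, SE 0.31, adjusted p = 1.51e-04). The transcripts of the folate carrier and of Tcn2 thus changed in opposite directions. In their list 11 of the 42 members tested were called higher and 8 lower (median log2 fold change -0.039, with 5 falls without Tn replicate 3). These shares (26.2% and 19%) were near the 24.5% of all genes tested.

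The E-box CACGTG, the letters bound by Myc and related factors, was searched on both strands in the same windows. Among genes called higher with a window, it was held by 4 of 13 purine genes (Ak4, Atic, Impdh2 and Paics), 4 of 16 pyrimidine genes (Dtymk, Nme1, Slc29a1 and Tyms) and 3 of 11 polyamine genes (Dohh, Enoph1 and Sms). Over all tested members with a window it was held by 4 of 20 (20%), 4 of 26 (15.4%) and 3 of 22 (13.6%). The share was 12.5% for all genes called higher, 11.7% for those called lower, 11.6% for all tested genes with a window and 7.15% for all windows. In the shorter window it was 1 of 13, 3 of 16 and 2 of 11, against 7.45% of tested genes. Among mitochondrial ribosomal proteins called higher, 4 of 57 held it (7.02%). The NRF1 motif, searched by that name, was held by 10 of the 57 (17.5%), against 11.5% of tested genes and 4.6% of all windows. It was held by 13.3% of all genes called higher, and by 12 of 66 tested mitochondrial ribosomal members with a window (18.2%). These counts are small and are a description. For the E-box 3 stretches are printed to show the setting of the letters (capitals), which lie 110, 203 and 61 bases before the start of Impdh2, Paics and Tyms.

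Impdh2 promoter, chr9:108560259-108560388, plus strand: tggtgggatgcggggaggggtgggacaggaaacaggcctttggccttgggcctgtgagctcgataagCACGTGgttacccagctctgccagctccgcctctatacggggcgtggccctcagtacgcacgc

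Paics promoter, chr5:76951052-76951161, plus strand: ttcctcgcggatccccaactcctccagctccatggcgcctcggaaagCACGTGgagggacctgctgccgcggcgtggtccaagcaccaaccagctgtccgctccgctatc

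Tyms promoter, chr5:30073626-30073753, minus strand: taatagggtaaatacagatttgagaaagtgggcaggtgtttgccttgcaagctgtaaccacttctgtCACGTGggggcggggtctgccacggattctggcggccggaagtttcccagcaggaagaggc

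Genes of nuclear transport were mostly called higher. Of nuclear pore proteins and transport receptors 43 of the 57 members tested were called higher and 1 lower (median log2 fold change 0.93, with 0 falls without Teff1 replicate 1, Teff1 replicate 2 or Tn replicate 1). Rcc1, which loads Ran with GTP on chromatin, had 28.4, 31.1 and 28.4 CPM in Tn against 190.1, 206 and 262 CPM in Teff1 (log2 fold change 2.90, SE 0.28, adjusted p = 1.90e-05). Tmem48, the pore membrane protein also called Ndc1, had 11.4, 16.2 and 14.5 CPM in Tn against 78.2, 96.1 and 88.5 CPM in Teff1 (log2 fold change 2.64, SE 0.44, adjusted p = 5.87e-04). The 1 fall was Nxf1, the main exporter of mRNA, with 277, 248 and 238 CPM in Tn against 162, 182 and 194 CPM in Teff1 (log2 fold change -0.51, SE 0.16, adjusted p = 0.023), which lost its call in 6 of 16 alternative fits, among them those without Teff1 replicate 1 (adjusted p = 0.077), without Teff1 replicate 2 (0.06), without Tn replicate 1 (0.082) and with Tn replicate 2 alone (0.2). Of replication-dependent histone genes 40 of 69 measured were tested, and 28 of the 40 members tested were called higher and 3 lower (median log2 fold change 3.21, with 0 falls without Teff1 replicate 2 and 1 fall without Teff1 replicate 3 or Tn replicate 1). Hist1h3c had 0.132, 0 and 0.0537 CPM in Tn against 5.90, 11.4 and 15.6 CPM in Teff1, and the ratio of counts was 165 (95% counting interval 56.1 to 800.4). The histone falls were Hist1h1c, Hist2h2be and Hist3h2a.

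Splicing factors were called higher far more often than lower. In the list 49 of the 93 members tested were called higher and 9 lower (median log2 fold change 0.62). The share called lower (9.68%) was below the 24.5% of all genes tested. Snrpa, the U1 snRNP protein A, had 35.5, 29.7 and 35.3 CPM in Tn against 101, 103 and 135 CPM in Teff1 (log2 fold change 1.75, SE 0.27, adjusted p = 3.17e-04). Hnrpll, an hnRNP protein known for CD45 splicing in T cells, had 32.1, 27.4 and 29.7 CPM in Tn against 89.5, 112 and 147 CPM in Teff1 (log2 fold change 1.96, SE 0.27, adjusted p = 1.86e-04). Of the 9 falls 5 were kinases that act on splicing factors, Clk1, Clk2, Clk4, Srpk2 and Prpf4b, and the others were Prpf39, Sf3b1, Srsf5 and Srsf12, all named after their calls were seen. Clk1, which phosphorylates SR proteins, had 477, 319 and 369 CPM in Tn against 154, 132 and 83.5 CPM in Teff1 (log2 fold change -1.66, SE 0.29, adjusted p = 8.37e-04). No test compared kinases with the other members.

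DNA repair genes were also called higher far more often than lower. Of them 51 of the 88 members tested were called higher and 8 lower (median log2 fold change 0.81, with 5 falls without Teff1 replicate 3). The share called lower (9.09%) was below the 24.5% of all genes tested. Rad54l, a DNA translocase of homologous recombination, had 2.12, 1.02 and 2.20 CPM in Tn against 64.3, 62.7 and 67 CPM in Teff1 (log2 fold change 5.17, SE 0.46, adjusted p = 1.31e-05). Chek1, a checkpoint kinase of replication, had 3.18, 1.22 and 2.47 CPM in Tn against 85.2, 79.8 and 67.1 CPM in Teff1 (log2 fold change 5.07, SE 0.45, adjusted p = 1.16e-05). These levels were within 1.3-fold of each other over the Teff1 libraries and far above every Tn library. The 8 falls were Ddb2, Ercc4, Ercc6, Xpa and Xpc, which act in nucleotide excision repair, with Neil1, Mdc1 and Poli. Xpc, a sensor of helix distortion, had 47.9, 51.3 and 52.4 CPM in Tn against 24.4, 21.6 and 19.5 CPM in Teff1 (log2 fold change -1.21, SE 0.25, adjusted p = 0.0019). Neil1, a DNA glycosylase, had 38.7, 22.8 and 28.8 CPM in Tn against 10.6, 9.88 and 9.76 CPM in Teff1 (log2 fold change -1.58, SE 0.27, adjusted p = 6.74e-04).

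Lymphocytes are not known for primary cilia. Of genes of the cilium and of intraflagellar transport 20 of the 52 members tested were called higher and 10 lower (median log2 fold change 0.49, with 6 falls without Teff1 replicate 1). The levels of the rises named here were low. Bbs5, of the BBSome coat, had 0.132, 0.0680 and 0.215 CPM in Tn against 2.52, 1.95 and 2.24 CPM in Teff1 (log2 fold change 3.91, SE 0.47, adjusted p = 7.06e-05). Wdr60, of the dynein that moves cargo towards the cell body, had 1.12, 0.544 and 0.805 CPM in Tn against 4.71, 6.84 and 4.73 CPM in Teff1 (log2 fold change 2.71, SE 0.35, adjusted p = 1.17e-04). Of the RFX transcription factors, some of which drive ciliary genes, Rfx1, Rfx2, Rfx3 and Rfx5 were among the 10 falls, and Rfx3 had 57.2, 59.4 and 48.6 CPM in Tn against 23.1, 16.5 and 11.8 CPM in Teff1 (log2 fold change -1.68, SE 0.25, adjusted p = 2.78e-04). Foxj1, named after its call was seen, was among the 20 rises.

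Centriole and centrosome genes had 20 rises and 6 falls of 47 tested (median log2 fold change 0.55, with 3 falls without Teff1 replicate 3, Tn replicate 1 or Tn replicate 2). Stil, needed for centriole duplication, had 1.59, 0.748 and 2.09 CPM in Tn against 69, 65.7 and 46 CPM in Teff1 (log2 fold change 5.32, SE 0.59, adjusted p = 4.60e-05). Aspm, a spindle pole protein, had 4.83, 2.11 and 3.86 CPM in Tn against 97.4, 96.5 and 94.5 CPM in Teff1 (log2 fold change 4.73, SE 0.66, adjusted p = 2.00e-04). Cep164, a distal appendage protein that helps build cilia, had 64.8, 67.9 and 67.5 CPM in Tn against 27.2, 27.7 and 28.5 CPM in Teff1 (log2 fold change -1.26, SE 0.13, adjusted p = 3.12e-05). The letters TTTGAA of the cell cycle homology region, searched on both strands, were in the windows of 5 of 16 members called higher (Aspm, Cep170, Cep55, Odf2 and Sass6), 2 of 6 called lower (Cep164 and Nin), and 14.5% of tested genes with a window and 17.9% of all windows. Over all tested members with a window 10 of 39 held these letters, and 17% of all genes called higher did. In the shorter window they were in 4 of 16 members called higher, 1 of 6 called lower (Nin) and 5.85% of tested genes. A pair is printed to show that a gene that rose and one that fell both hold these letters (capitals). They lie 6 bases after the start of Aspm, but 128 bases before that of Cep164, outside the shorter window.

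Aspm promoter, chr1:139454712-139454784, plus strand: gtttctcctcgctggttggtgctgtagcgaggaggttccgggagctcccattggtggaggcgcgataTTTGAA

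Cep164 promoter, chr9:45828729-45828858, minus strand: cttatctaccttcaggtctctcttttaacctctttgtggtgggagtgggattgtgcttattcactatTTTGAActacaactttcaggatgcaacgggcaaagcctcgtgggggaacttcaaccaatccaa

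Negative regulators of signalling were among the classes with most falls. Of the brakes on PI3K, mTOR and FoxO signalling 4 of the 32 members tested were called higher and 17 lower (median log2 fold change -0.68, with 2 rises without Tn replicate 3), and 8 of the 17 falls were even over the Tn libraries and 0 uneven. Pik3ip1, an inhibitor of PI3K at the membrane, had 162, 206 and 176 CPM in Tn against 28.5, 27.7 and 16.7 CPM in Teff1 (log2 fold change -2.90, SE 0.38, adjusted p = 1.29e-04). Tsc22d3, the glucocorticoid-induced leucine zipper, had 554, 528 and 419 CPM in Tn against 46.3, 42.1 and 17.3 CPM in Teff1 (log2 fold change -3.83, SE 0.58, adjusted p = 3.07e-04). Sesn1 and its paralogue Sesn2, which restrain mTORC1 when amino acids are short, moved apart. Sesn1 had 129, 136 and 132 CPM in Tn against 29.5, 32.4 and 36.7 CPM in Teff1 (log2 fold change -2.01, SE 0.19, adjusted p = 1.55e-05). Sesn2 had 12.4, 7.62 and 7.08 CPM in Tn against 126, 103 and 37.6 CPM in Teff1 (log2 fold change 3.30, SE 0.45, adjusted p = 1.60e-04). Tsc1, Tsc2, Foxo1 and Foxo4 were also called lower.

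Among regulators close to the T cell receptor 10 of the 46 members tested were called higher and 20 lower (median log2 fold change -0.34), and 15 of the 20 falls were even over the Tn libraries and 0 uneven. Dtx1, an E3 ligase linked to T cell anergy, had 376, 503 and 445 CPM in Tn against 13.2, 7.36 and 8.48 CPM in Teff1 (log2 fold change -5.51, SE 0.82, adjusted p = 2.91e-04). Rasa3, which switches off Ras family proteins, had 412, 444 and 495 CPM in Tn against 103, 67.2 and 44.5 CPM in Teff1 (log2 fold change -2.66, SE 0.31, adjusted p = 5.85e-05). Rasgrp2, on the same list but itself an exchange factor that switches on Rap1, had 680.5, 531 and 736 CPM in Tn against 27.4, 35.5 and 21.1 CPM in Teff1 (log2 fold change -4.54, SE 0.27, adjusted p = 1.79e-06). The rises were also inhibitors: Spry1, which dampens Ras-MAPK signals, had 6.48, 0.884 and 2.41 CPM in Tn against 124, 53 and 63.9 CPM in Teff1 (log2 fold change 4.62, SE 0.62, adjusted p = 1.53e-04). Sla, an adaptor that lowers receptor levels, had 158, 107 and 133 CPM in Tn against 595, 364 and 259 CPM in Teff1 (log2 fold change 1.61, SE 0.32, adjusted p = 0.0016). So inhibitors changed in both directions, and Cblb, Cd5, Cd6, Ndfip1, Ndfip2, Ptpn2, Ptpn7 and Spred1 were the other rises.

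Cyclic AMP signalling, which restrains T cells, had 19 falls and 6 rises of 40 tested (median log2 fold change -0.68), and 11 of the 19 falls were even over the Tn libraries and 0 uneven. The falls included a gene each that makes, senses and destroys the messenger. Adcy7, an adenylyl cyclase, had 772, 882 and 887 CPM in Tn against 114, 201 and 173 CPM in Teff1 (log2 fold change -2.38, SE 0.20, adjusted p = 9.36e-06). Rapgef4, the cyclic AMP sensor EPAC2, had 86.7, 86.3 and 77.5 CPM in Tn against 9.46, 6.08 and 4.06 CPM in Teff1 (log2 fold change -3.67, SE 0.33, adjusted p = 1.26e-05). Pde2a, a phosphodiesterase, had 283, 245 and 259 CPM in Tn against 8.70, 9.93 and 10.1 CPM in Teff1 (log2 fold change -4.78, SE 0.45, adjusted p = 1.67e-05). All 3 had close levels over the Tn libraries. Rises included Crem, a nuclear responder to cyclic AMP, at 25.5, 12.7 and 10.1 CPM in Tn against 114, 59.3 and 47.8 CPM in Teff1 (log2 fold change 2.20, SE 0.47, adjusted p = 0.0026). Akap1, the mitochondrial anchor of protein kinase A, also rose, with 4.23, 5.85 and 3.92 CPM in Tn against 28, 61.9 and 61 CPM in Teff1 (log2 fold change 3.43, SE 0.35, adjusted p = 2.71e-05).

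Of regulators of G proteins and small GTPases, which steer cell shape and migration, 11 of the 64 members tested were called higher and 28 lower (median log2 fold change -0.51, with 7 rises without Teff1 replicate 2 or Tn replicate 3), and 17 of the 28 falls were even over the Tn libraries and 1 uneven. Prex1, a Rac exchange factor, had 559, 550.2 and 524 CPM in Tn against 97.8, 92.3 and 84.7 CPM in Teff1 (log2 fold change -2.57, SE 0.16, adjusted p = 1.83e-06). Arhgef18, another exchange factor, had 394, 415 and 442 CPM in Tn against 70.9, 47.5 and 37.8 CPM in Teff1 (log2 fold change -3.0, SE 0.26, adjusted p = 9.77e-06). Ect2, the exchange factor of cytokinesis, went the other way, with 5.82, 4.29 and 5.63 CPM in Tn against 65.5, 60.1 and 67.3 CPM in Teff1 (log2 fold change 3.61, SE 0.64, adjusted p = 8.28e-04). Among tubulins and actin regulators 11 of the 69 members tested were called higher and 20 lower (median log2 fold change 0.0026): Stmn1, which destabilises microtubules, had 20.9, 11.3 and 18.5 CPM in Tn against 346, 191 and 272 CPM in Teff1 (log2 fold change 3.99, SE 0.37, adjusted p = 1.50e-05). Myo1f, a myosin of blood cells, had 100.2, 62.6 and 104 CPM in Tn against 7.89, 6.56 and 6.12 CPM in Teff1 (log2 fold change -3.70, SE 0.27, adjusted p = 4.95e-06).

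Regulators of mRNA decay had calls in both directions (13 higher and 15 lower of 49 tested, median log2 fold change -0.061, with 8 rises without Tn replicate 1). As a class they lay near all genes tested: 26.5% were called higher and 30.6% lower, against 24.5% either way. Zfp36l2 and Zfp36, which bind AU-rich elements and promote decay, were among the falls. Zfp36l2 had 1868, 1717 and 1435 CPM in Tn against 325, 268 and 253 CPM in Teff1 (log2 fold change -2.57, SE 0.19, adjusted p = 4.61e-06). Zfp36 had 218, 174 and 278 CPM in Tn against 34.5, 50.2 and 54.5 CPM in Teff1 (log2 fold change -2.27, SE 0.35, adjusted p = 3.34e-04). Tob1, an antiproliferative protein that recruits deadenylase, had 72.4, 58.6 and 35.1 CPM in Tn against 8.04, 13.6 and 12.5 CPM in Teff1 (log2 fold change -2.28, SE 0.28, adjusted p = 8.98e-05). Genes of Y-box mRNA-binding proteins were among the rises: Csda (now Ybx3) had 44.2, 25.3 and 29.1 CPM in Tn against 409, 585 and 705 CPM in Teff1 (log2 fold change 4.11, SE 0.28, adjusted p = 3.03e-06). Ybx1 had 472, 406 and 355 CPM in Tn against 1004, 1104 and 1852 CPM in Teff1 (log2 fold change 1.68, SE 0.23, adjusted p = 1.92e-04).

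Lysosomal genes were called lower more often than higher. Of the lysosome list 2 of the 54 members tested were called higher and 25 lower (median log2 fold change -0.73, with 0 rises without Tn replicate 2 and 1 rise without Teff1 replicate 2), and 12 of the 25 falls were even over the Tn libraries and 2 uneven. Acp5, a tartrate-resistant acid phosphatase, was even, with 307, 358 and 348 CPM in Tn against 38.9, 35.6 and 32.1 CPM in Teff1 (log2 fold change -3.25, SE 0.33, adjusted p = 2.47e-05). The falls of largest size, Ctsh and Lgmn, encode proteases abundant in antigen-presenting cells and were uneven. Ctsh had 32.7, 4.35 and 40.9 CPM in Tn against 0.190, 0 and 0.424 CPM in Teff1 (log2 fold change -7.02, SE 1.11, adjusted p = 3.98e-04). Lgmn had 23.9, 5.92 and 22.5 CPM in Tn against 0.523, 0.903 and 0.727 CPM in Teff1 (log2 fold change -4.60, SE 0.58, adjusted p = 1.06e-04). Beside them the MHC class II sum was 1700.2, 268 and 2735 CPM in Tn replicates 1, 2 and 3, and its part in these falls was not tested. The rises were Lamp2 and Ppt1.

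Of autophagy genes 3 of the 45 members tested were called higher and 15 lower (median log2 fold change -0.43), and 6 of the 15 falls were even over the Tn libraries and 0 uneven. Map1lc3b, the LC3B protein of the autophagosome membrane, had 204, 151 and 132 CPM in Tn against 59.4, 62.3 and 65.1 CPM in Teff1 (log2 fold change -1.38, SE 0.21, adjusted p = 2.96e-04). Atg2a, which transfers lipids to it, had 183, 136 and 126 CPM in Tn against 50.5, 58.2 and 49.2 CPM in Teff1 (log2 fold change -1.50, SE 0.29, adjusted p = 0.0014). Gabarapl1, of the same protein family as LC3, had 10.8, 4.83 and 6.38 CPM in Tn against 50.9, 57.2 and 79.5 CPM in Teff1 (log2 fold change 3.09, SE 0.28, adjusted p = 1.39e-05). Members of this conjugation family thus moved in opposite directions, with no overlap of groups.

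Transcripts of glycan enzymes, surface receptors and channels had calls of both signs. Among sialyl- and glycosyltransferases and related enzymes 15 of the 90 members tested were called higher and 38 lower (median log2 fold change -0.50), and 15 of the 38 falls were even over the Tn libraries and 4 uneven. Chst2, which sulphates N-acetylglucosamine, had 2.98, 1.29 and 3.17 CPM in Tn against 69.4, 45.3 and 110.1 CPM in Teff1 (log2 fold change 4.90, SE 0.54, adjusted p = 4.51e-05). B4galt2, a galactosyltransferase, had 0.0661, 0.272 and 0.107 CPM in Tn against 2.42, 5.13 and 5.58 CPM in Teff1 (log2 fold change 4.84, SE 0.52, adjusted p = 3.72e-05). Man1c1, a Golgi mannosidase, had 7.47, 4.83 and 8.80 CPM in Tn against 0.808, 0.618 and 0.970 CPM in Teff1 (log2 fold change -3.14, SE 0.41, adjusted p = 1.28e-04). Among Ly6 and GPI-anchored proteins 5 of the 25 members tested were called higher and 12 lower (median log2 fold change -0.80, with 7 falls without Tn replicate 3). Ly6a, known as Sca-1, had 22.6, 10.5 and 29.1 CPM in Tn against 151, 272 and 302 CPM in Teff1 (log2 fold change 3.54, SE 0.35, adjusted p = 2.41e-05). Cd55, which protects cells from complement, had 132, 109 and 120.4 CPM in Tn against 7.80, 5.08 and 4.36 CPM in Teff1 (log2 fold change -4.38, SE 0.84, adjusted p = 0.0013). Ly6d, a marker of B cell progenitors, was an uneven fall with 32.5, 1.91 and 57.3 CPM in Tn against 0.380, 0.0475 and 0.121 CPM in Teff1 (adjusted p = 0.11 with Tn replicate 2 alone).

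Ion channels had 34 falls and 10 rises among 82 tested of 200 measured, and 18 of the 34 falls were even over the Tn libraries and 5 uneven. Kcna2, a voltage-gated potassium channel, had 18.2, 31.6 and 23.2 CPM in Tn against 1.47, 0.475 and 0.424 CPM in Teff1 (log2 fold change -4.92, SE 0.82, adjusted p = 5.88e-04). Among potassium channels Kcnk5 and Kcnq5 rose. Kcnk5, of the tandem-pore family, had 3.11, 0.272 and 4.88 CPM in Tn against 27.3, 65.1 and 53 CPM in Teff1 (log2 fold change 4.11, SE 0.66, adjusted p = 4.65e-04). Kcnq5 had 4.37, 2.93 and 5.31 CPM in Tn against 28.1, 28.2 and 22.1 CPM in Teff1 (log2 fold change 2.63, SE 0.24, adjusted p = 1.40e-05). For lipid, nucleotide and orphan receptors 5 of the 56 members tested were called higher and 24 lower (median log2 fold change -0.70). Adora2b, a low-affinity adenosine receptor, was under 0.2 CPM in each Tn library and had 2.23, 3.42 and 2.91 CPM in Teff1 (log2 fold change 4.46, SE 0.58, adjusted p = 1.29e-04).

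Semaphorins, plexins, ephrins and Eph receptors, known from axon guidance, had 4 rises and 10 falls of 28 tested (6 falls without Teff1 replicate 3). The receptors Nrp1 and Nrp2 moved apart. Nrp1 had 7.74, 2.45 and 6.92 CPM in Tn against 78.5, 20.5 and 39.9 CPM in Teff1 (log2 fold change 3.01, SE 0.49, adjusted p = 4.70e-04). Nrp2 had 6.42, 11.6 and 16.5 CPM in Tn against 0.285, 0.285 and 0.364 CPM in Teff1 (log2 fold change -5.19, SE 0.58, adjusted p = 4.72e-05). So did 2 of the semaphorins. Sema7a, a GPI-anchored semaphorin, had 7.74, 2.59 and 10.1 CPM in Tn against 77.5, 37.1 and 75 CPM in Teff1 (log2 fold change 3.20, SE 0.56, adjusted p = 8.11e-04). Sema4a, a membrane-bound one, had 264, 309 and 302 CPM in Tn against 71.3, 56 and 42.5 CPM in Teff1 (log2 fold change -2.37, SE 0.20, adjusted p = 9.42e-06).

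The TNF superfamily had as many rises as falls (12 and 12 of 34 tested, with 5 falls without Tn replicate 3 and 6 falls without Teff1 replicate 3). Among the rises were 3 receptors of the family. Tnfrsf9 (4-1BB) had 13.2, 11.8 and 12.1 CPM in Tn against 504, 581 and 452 CPM in Teff1 (log2 fold change 5.37, SE 0.32, adjusted p = 1.79e-06). Tnfrsf4 (OX40) had 12, 6.60 and 9.44 CPM in Tn against 178, 264 and 144 CPM in Teff1 (log2 fold change 4.38, SE 0.51, adjusted p = 5.85e-05). Tnfrsf8 (CD30) was low, with 0.0661, 0 and 0.215 CPM in Tn against 1.95, 2.14 and 2.48 CPM in Teff1 (log2 fold change 4.35, SE 0.62, adjusted p = 2.16e-04). The falls with the largest fold changes were receptors of B cells and uneven: Tnfrsf13c, the BAFF receptor, had 23, 2.99 and 49.8 CPM in Tn against 0.951, 1.62 and 2.73 CPM in Teff1. Cd40 had 10.6, 0.544 and 15.6 CPM in Tn against 0.618, 0 and 0.0606 CPM in Teff1, with adjusted p-values of 0.66 and 0.69 when Tn replicate 2 stood alone, and 0.053 for Cd40 without Teff1 replicate 3. The B cell marker sum was lower in Tn replicate 2 than in replicates 1 and 3, as given above.

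Innate sensors and inflammasome genes had the lowest median of all lists, -1.14, with 19 of 39 tested called lower and 3 higher, and 9 of the 19 falls were even over the Tn libraries and 3 uneven. Tlr9, the endosomal receptor of unmethylated DNA, was uneven, with 11.4, 0.953 and 22.3 CPM in Tn against 0.475, 0.143 and 0.364 CPM in Teff1. With Tn replicate 2 as the lone Tn library its adjusted p was 0.4. Irak1bp1, which binds the kinase IRAK1, rose, with 0.661, 0.272 and 0.429 CPM in Tn against 3.99, 6.13 and 7.27 CPM in Teff1 (log2 fold change 3.65, SE 0.53, adjusted p = 2.39e-04).

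Transcription factor families outside the known activation factors were called lower more often than higher. Of 313 tested Zfp genes, 94 (30%) were called lower and 26 (8.31%) higher, with a median log2 fold change of -0.41, and 52 falls without Teff1 replicate 3. None of these falls was uneven, and 32 were even. Zfp831 had 137, 134 and 123 CPM in Tn against 26, 21.5 and 14.9 CPM in Teff1 (log2 fold change -2.66, SE 0.27, adjusted p = 2.72e-05). Zfp652 had 168, 210.1 and 176 CPM in Tn against 43.1, 33.1 and 26.6 CPM in Teff1 (log2 fold change -2.43, SE 0.26, adjusted p = 3.73e-05). Zfp367, another zinc finger gene, had 13.5, 10.8 and 17.5 CPM in Tn against 93.6, 67.9 and 62.6 CPM in Teff1 (log2 fold change 2.42, SE 0.23, adjusted p = 1.55e-05). Of Zbtb and other zinc finger families 14 of the 91 members tested were called higher and 28 lower (median log2 fold change -0.30, with 7 rises without Tn replicate 3). Zbtb32, a repressor induced in activated lymphocytes, had 1.98, 0.680 and 1.66 CPM in Tn against 92.6, 168 and 183 CPM in Teff1 (log2 fold change 6.66, SE 0.78, adjusted p = 6.23e-05). Zbtb4, which binds methylated DNA, had 133, 146 and 131 CPM in Tn against 28.1, 13.1 and 11.4 CPM in Teff1 (log2 fold change -2.96, SE 0.59, adjusted p = 0.0017).

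Of the Wnt and Notch pathways 5 of the 47 members tested were called higher and 24 lower (median log2 fold change -0.68), and 13 of the 24 falls were even over the Tn libraries and 0 uneven. Axin2, a feedback target of Wnt signalling, had 56, 56.1 and 53.4 CPM in Tn against 11.9, 8.79 and 8.55 CPM in Teff1 (log2 fold change -2.50, SE 0.20, adjusted p = 8.02e-06). A ligand rose: Wnt10b had 0.463, 0.544 and 0.483 CPM in Tn against 34.2, 32.3 and 33.3 CPM in Teff1 (log2 fold change 6.05, SE 0.43, adjusted p = 3.82e-06), and the 3 Teff1 libraries lay within 10% of each other. Rbpj, the DNA-binding partner of Notch, had 49.7, 48.3 and 39.4 CPM in Tn against 459.7, 309 and 219 CPM in Teff1 (log2 fold change 2.84, SE 0.25, adjusted p = 1.17e-05), while its coactivators Maml1, Maml2 and Maml3 were all called lower.

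Nuclear receptors and their cofactors had 15 falls and 4 rises of 30 tested (2 rises without Teff1 replicate 1 or Tn replicate 2 and 9 falls without Teff1 replicate 2 or Teff1 replicate 3). Rarg, a retinoic acid receptor, had 74, 86.7 and 86.4 CPM in Tn against 23.9, 15.2 and 12.1 CPM in Teff1 (log2 fold change -2.27, SE 0.48, adjusted p = 0.0024). Rara, Rarb and Rxra were called lower too. Nr4a3, a receptor induced by T cell receptor signals, had 39, 16.3 and 15.8 CPM in Tn against 754, 550.1 and 459 CPM in Teff1 (log2 fold change 4.63, SE 0.70, adjusted p = 3.15e-04). Nr4a1 and Nr4a2 also rose. The remaining rise was Thrb. Of homeobox genes 3 of the 32 members tested were called higher and 12 lower (median log2 fold change -0.42), with Pou6f1 at 51.7, 43.5 and 63.5 CPM in Tn against 11.6, 5.75 and 6.06 CPM in Teff1 (log2 fold change -2.76, SE 0.46, adjusted p = 5.64e-04).

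Clock genes had calls of both signs, 5 higher and 8 lower of 25 tested. In so small a list these shares (20% and 32%) were not far from the 24.5% of all genes tested. Arntl, which encodes the activator BMAL1, had 31.8, 30.5 and 35 CPM in Tn against 17.2, 11.5 and 11.4 CPM in Teff1 (log2 fold change -1.28, SE 0.24, adjusted p = 0.0012). Npas2, a partner of BMAL1 that can replace CLOCK, had 0.397, 0.0680 and 0.107 CPM in Tn against 7.51, 5.23 and 6.85 CPM in Teff1 (log2 fold change 5.07, SE 0.53, adjusted p = 3.02e-05). Clock itself was called lower. The repressor Nr1d1 had 5.75, 7.21 and 4.72 CPM in Tn against 0.903, 0.998 and 1.58 CPM in Teff1 (log2 fold change -2.35, SE 0.48, adjusted p = 0.0019). Dbp and Tef, of the PAR bZIP family, were also lower. The E-box was in the windows of 5 of the 20 tested clock genes with a window (Bhlhe41, Cry1, Gm129, Per1 and Tef) and the D-box TTATGTAA in 1 of 20 (Per3), the D-box against 0.68% of tested genes and 0.938% of all windows. The labels do not give the time of day of collection.

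Immediate early genes differed between the groups and among the Tn libraries. Of the list 7 of the 38 members tested were called higher and 17 lower (median log2 fold change -0.94), and 7 of the 17 falls were even over the Tn libraries and 1 uneven. Fos, a subunit of AP-1, had 427, 132 and 116 CPM in Tn against 16.5, 8.93 and 6.18 CPM in Teff1 (log2 fold change -4.42, SE 0.65, adjusted p = 2.58e-04). Junb had 3548, 1347 and 911 CPM in Tn against 484, 295 and 297 CPM in Teff1 (log2 fold change -2.43, SE 0.45, adjusted p = 0.001). In both, Tn replicate 1 was the highest library. Fosb was at 409, 9.39 and 43.3 CPM in Tn against 12.1, 2.85 and 5.76 CPM in Teff1, so that Tn replicate 2 lay within the range of Teff1. The cyclic AMP response element TGACGTCA was in the windows of 3 of 17 members called lower (Btg2, Dusp1 and Ppp1r15a) and in 3.53% of tested genes with a window and 1.79% of all windows. Over all tested members with a window 3 of 32 held it. In the shorter window 1 of the 17 held it (Ppp1r15a), against 2.91% of tested genes. Of the cyclic AMP list 1 of 33 tested members held it. Sgk1, a kinase induced by serum and glucocorticoids, was even, with 112, 124 and 136 CPM in Tn against 2.09, 3.71 and 3.76 CPM in Teff1 (log2 fold change -5.29, SE 0.31, adjusted p = 1.79e-06), and so was Cxcr4, the receptor of CXCL12, with 217, 191 and 156 CPM in Tn against 7.70, 5.08 and 2.18 CPM in Teff1 (log2 fold change -5.23, SE 0.48, adjusted p = 1.39e-05). Atf3 rose, with 12.7, 0.204 and 0.858 CPM in Tn against 96.1, 84.2 and 38.7 CPM in Teff1 (log2 fold change 4.0, SE 0.94, adjusted p = 0.0043). Rgs1, which shortens chemokine receptor signals, had 56.5, 19.5 and 13.6 CPM in Tn against 340.2, 226 and 219 CPM in Teff1 (log2 fold change 3.13, SE 0.53, adjusted p = 6.16e-04). 

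Small families of lymphocyte GTPases and growth regulators were divided. Of 8 Gimap genes 5 fell and 1 rose (0 rises without Teff1 replicate 2, Teff1 replicate 3, Tn replicate 1 or Tn replicate 3). Gimap8 had 389, 472 and 494 CPM in Tn against 145, 163 and 115 CPM in Teff1 (log2 fold change -1.68, SE 0.22, adjusted p = 1.22e-04). Gimap6 had 1083, 681 and 609 CPM in Tn against 328, 267 and 262 CPM in Teff1 (log2 fold change -1.47, SE 0.22, adjusted p = 2.89e-04). Of 6 tested Schlafen genes 3 fell and 2 rose. Slfn5 had 49.1, 72.2 and 80.4 CPM in Tn against 1.52, 5.32 and 2.79 CPM in Teff1 (log2 fold change -4.38, SE 0.47, adjusted p = 3.71e-05). Slfn3 had 4.70, 5.72 and 3.97 CPM in Tn against 28.5, 26.8 and 26.5 CPM in Teff1 (log2 fold change 2.51, SE 0.26, adjusted p = 3.12e-05), so that members of this family changed in opposite directions. Members of both families are similar in sequence, and how reads that fit several copies were counted is not given in the sources used here.

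Several branches of metabolism were divided as well. Among glutathione, thioredoxin, selenoprotein and metallothionein genes 26 of the 66 members tested were called higher and 10 lower (median log2 fold change 0.40). Slc7a11, the cystine importer, had 0.397, 0.136 and 0.322 CPM in Tn against 16.6, 8.12 and 3.39 CPM in Teff1 (log2 fold change 5.0, SE 0.73, adjusted p = 2.53e-04). Ggt1, which breaks down glutathione outside the cell, had 53.8, 79.1 and 62.7 CPM in Tn against 2.04, 0.903 and 0.727 CPM in Teff1 (log2 fold change -5.71, SE 0.52, adjusted p = 1.36e-05). Of NAD, sirtuin, PARP and ADP-ribosylation genes 3 of the 41 members tested were called higher and 16 lower (median log2 fold change -0.47), and 6 of the 16 falls were even over the Tn libraries and 2 uneven. Nampt, the rate-limiting enzyme of NAD salvage, had 44.3, 38 and 33.9 CPM in Tn against 134, 168 and 213 CPM in Teff1 (log2 fold change 2.15, SE 0.38, adjusted p = 8.04e-04). Art2b, a surface ADP-ribosyltransferase of T cells, had 44.6, 81 and 72.8 CPM in Tn against 12.6, 7.27 and 8.18 CPM in Teff1 (log2 fold change -2.82, SE 0.52, adjusted p = 0.0011). Cd38, which consumes NAD, was an uneven fall with 20.7, 3.06 and 33.1 CPM in Tn against 0.523, 2.61 and 2.12 CPM in Teff1 (adjusted p = 0.64 with Tn replicate 2 alone and 0.053 without Tn replicate 3).

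Lipid lists had calls in both directions. For fatty acid oxidation and the peroxisome the shares (25.8% higher and 24.2% lower) were close to the 24.5% of all genes tested. For fatty acid oxidation and the peroxisome 16 of the 62 members tested were called higher and 15 lower (median log2 fold change 0.015, with 10 rises without Tn replicate 1), for phospholipid synthesis 18 of the 50 members tested were called higher and 15 lower (median log2 fold change 0.27), and for sphingolipids 6 of the 40 members tested were called higher and 13 lower (median log2 fold change -0.23, with 3 rises without Tn replicate 1). Upper-quartile scaling, which lowers the median of all genes by 0.14, puts the medians of the fatty acid list and of the tubulin and actin list below 0. Acot7, an acyl-CoA thioesterase, had 19.5, 11.7 and 19 CPM in Tn against 70.0, 126 and 166 CPM in Teff1 (log2 fold change 2.84, SE 0.31, adjusted p = 3.71e-05). Acsl4, which activates arachidonate, had 48.7, 63 and 54.3 CPM in Tn against 169, 237 and 212 CPM in Teff1 (log2 fold change 1.90, SE 0.27, adjusted p = 2.03e-04). Smpdl3a, of the acid sphingomyelinase family, had 57.7, 73.4 and 64.2 CPM in Tn against 13.4, 14.7 and 9.03 CPM in Teff1 (log2 fold change -2.40, SE 0.25, adjusted p = 3.01e-05). Haem and iron genes also had calls both ways (13 higher and 12 lower of 38 tested). Tfrc, the transferrin receptor, had 96.4, 83.4 and 70.5 CPM in Tn against 312, 648 and 854 CPM in Teff1 (log2 fold change 2.86, SE 0.47, adjusted p = 5.21e-04).

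The share of calls differed between classes of gene. Of 12105 tested protein-coding genes 26.9% were called higher and 25.3% lower. Of 405 tested long noncoding RNA genes 8.15% were called higher and 23.5% lower, with a median log2 fold change of -0.67 and a median level of 1.55 CPM over both groups, against 31.5 CPM for protein-coding genes. Of 589 pseudogenes 22.4% were called higher and 4.92% lower, and since reads of a pseudogene and its parent may be exchanged, those rises are uncertain. Xist, the RNA that silences an X chromosome, was abundant in all 6 libraries, with 824, 895 and 973 CPM in Tn against 3277, 1946 and 1334 CPM in Teff1 (log2 fold change 1.28, SE 0.39, adjusted p = 0.018). Its call was lost with Tn replicate 2 alone (adjusted p = 0.19), without Tn replicate 1 (0.058) and without Teff1 replicate 1 (0.074). Gas5, a host of small nucleolar RNAs, had 167, 156 and 147 CPM in Tn against 408, 408 and 265 CPM in Teff1 (log2 fold change 1.20, SE 0.21, adjusted p = 6.71e-04).

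Segments of antigen receptor genes had few or no rises. Of 43 tested J segments of the T cell receptor alpha locus 26 were called lower and 0 higher. At the same locus 0 of 47 V segments were called in edgeR's test, 1 had an unadjusted p under 0.05, and DESeq2 called 0. Of 30 tested beta V and J segments 18 were lower. Immunoglobulin V and J segments, which mark B lineage cells, were lower in 22 of 24, of which 6 were uneven and 7 even. DESeq2 called 17 of these 24, 33 of the 43 alpha J segments and 21 of the 30 beta segments. The counts of single segments are low and reads may fit several of them, so they are given as counts of calls only.

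The longest genes were called lower more often than others. Tested protein-coding genes were divided into 5 equal groups by their genomic span in GRCm38.p6. In the shortest group (median 4.48 kb) 27.1% were called higher and 23% lower, with a median log2 fold change of 0.064. In the longest group (median 109 kb) 19.6% were called higher and 33% lower, with a median of -0.23. The 3 groups between had 28.3% to 30.1% called higher and 21.8% to 24.9% lower. Of the 798 falls of the longest group 339 were even and 55 uneven, and of the 557 falls of the shortest group 199 and 53. Over all falls 37.5% were even and 7.7% uneven. By chromosome the share called higher ran from 19.3% to 31.8% and the share called lower from 20.1% to 28.2%, over 20 chromosomes.

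**Figure D5:**
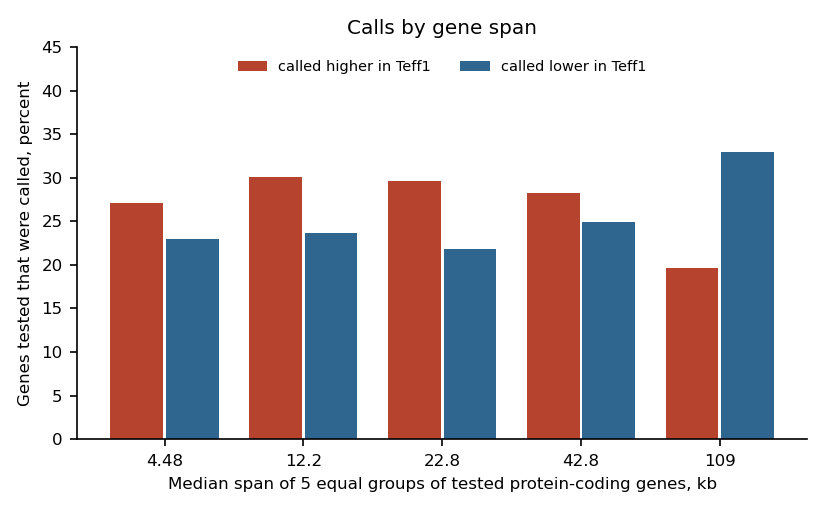
Share of tested protein-coding genes called higher (red) or lower (blue) in Teff1, in percent, in 5 equal groups by genomic span, labelled with each group's median span in kb. The first 4 groups have more rises than falls, and the longest has 19.6% called higher and 33% lower.

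Abundant transcripts were ranked by the change of their level. Those that gained most CPM were Gzmb, Eef2, Hsp90ab1, Ldha, Pkm, Ncl, Npm1 and Rps2. Hsp90ab1, a cytosolic chaperone, had 1729, 1634 and 1257 CPM in Tn against 3827, 4241 and 5533 CPM in Teff1 (log2 fold change 1.56, SE 0.19, adjusted p = 9.43e-05). Npm1, a nucleolar chaperone, had 667, 646 and 499 CPM in Tn against 2185, 1923 and 2813 CPM in Teff1 (log2 fold change 1.93, SE 0.18, adjusted p = 1.44e-05). Those that lost most included Hmha1, Macf1, Junb, Arhgef1 and Ddx5. Hmha1, a GTPase-activating protein of blood cells (now Arhgap45), had 2209, 2266 and 2448 CPM in Tn against 485, 405 and 307 CPM in Teff1 (log2 fold change -2.53, SE 0.34, adjusted p = 1.40e-04). Macf1, a giant protein that links actin and microtubules, had 2791, 2738 and 2783 CPM in Tn against 668, 580.2 and 458 CPM in Teff1 (log2 fold change -2.29, SE 0.34, adjusted p = 3.01e-04). Ddx5, an RNA helicase, had 2931, 2546 and 2229 CPM in Tn against 1153, 965 and 1095 CPM in Teff1 (log2 fold change -1.26, SE 0.20, adjusted p = 4.74e-04). The falls of these 3 genes were even over Tn. Malat1, a nuclear long noncoding RNA, also had one of the largest losses, with 7784, 3085 and 4854 CPM in Tn against 1752, 399 and 549.9 CPM in Teff1 (log2 fold change -2.54, SE 0.82, adjusted p = 0.022), but its adjusted p was 0.25 with Tn replicate 2 alone, 0.072 without Tn replicate 1, 0.08 without Teff1 replicate 2 and 0.084 without Teff1 replicate 3.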

How the data were processed

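RNA-seq of mouse CD8+ T cells was analysed, 3 libraries each of Tn and Teff1, within a table of 12 libraries; 4 Hi-C samples were not analysed here, and a few genes are not reported here. The authors deposited whole-number read counts per gene, and a separate table of log2 values, which was used only as an alternative in limma. The submitters' processing notes name HISAT2, HTSeq, DESeq2 and mm10 with no versions; the strand setting and the treatment of reads that fit several copies are not given in the sources used here.

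Counts were fitted in edgeR 4.0.16 (quasi-likelihood test, TMM scaling, filterByExpr) with 1 group term over all 12 libraries, which left 14332 of 34573 genes, and Benjamini-Hochberg adjusted p-values under 0.05 were called. Depth of 14.7 to 21.2 M counts per library limits genes with few counts. The pipeline was tested on simulated data. SE is the size of the log2 fold change over the root of F. Intervals of count ratios are 95% and cover counting error only.

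Genes to name were the 10 largest rises and falls with 10 CPM or more in the higher group, no overlap of groups, a call with Tn replicate 2 as the lone Tn library, and no place among marker lists, predicted genes, pseudogenes or receptor segments; the 8 most uneven falls and 8 opposite ones; the 8 genes that gained and lost most CPM; the sorted proteins; the most abundant marker per list; and up to 4 called members of each gene list in its main direction and 2 in the other. A subset is named; any other gene, listed by name or for its promoter, was chosen after its values were seen. Members and lists were chosen with earlier results of these data known. Alternatives were other scalings, DESeq2, limma, no filter, 6 libraries only, a replicate block, and each library left out. Promoters and gene spans are RefSeq's, GRCm38.p6.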

Additional observations from a re-analysis of the deposited data

How the results depend on the processing

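No named gene that was called changed direction under an alternative that gave it a value. Of the named genes that were called, 121 of 400 lost their call with Tn replicate 2 as the lone Tn library, in which its spread is assumed to be that of the other groups, and 1 to 40 of up to 403 lost it under each other alternative. With that lone library 1502 genes were called higher and 1513 lower, and 1406 and 1332 at 2-fold or more. In limma on the deposited log2 values 1276 genes were at least 2-fold higher. With 1 library left out at a time, 2914 to 3554 genes were called higher and 2819 to 3674 lower. At 2-fold or more these numbers were 2004 to 2472 and 2132 to 2808. In these fits 1282 to 1325 falls were even and 210 to 523 uneven. There were 408 uneven falls without Teff1 replicate 1 and 523 without Tn replicate 2. The pattern over Tn was always taken from all 3 Tn libraries, whichever library was left out of the fit. Even falls also had to be called in the same fit with Tn replicate 2 alone. Their number could therefore vary little, and its narrow range is no measure of stability. The number of uneven falls was 71 with Tn replicate 2 alone, 434 without replicate 1 of each activated group, 427 in limma, 453 without the filter on low counts, and 422 and 174 where the multiple was 1.5 and 3. The replicate block gave 3912 higher and 4141 lower, although samples of equal number share only that number (correlations of their deviations from the group means were 0.14, 0.13 and 0.0048 for numbers 1, 2 and 3), and not every sample correlated best with its own number. Upper-quartile scaling lowered the median log2 fold change of all genes by 0.14. Apart from the constructions named (fewer samples, other genes tested), the cause of these differences was not tested. Depth limits what can be said of genes with few counts in both groups.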
